A study of Mus musculus with 16 samples.

Results

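The genes described here are 9 members of the bone morphogenetic protein (BMP) receptor system and the LIM kinases beneath it: the type II receptors Bmpr2, Acvr2a and Acvr2b, the type I receptors Bmpr1a, Bmpr1b, Acvr1 and Acvr1b, and the kinases Limk1 and Limk2. They were taken by name, for the known role of BMPR2 in mitral cell dendrites, and every probe whose RefSeq accession belonged to one of them was used. This gave 12 probes of the 55681 on the array, and 9 of its 20124 named genes. BMP ligands bring a type II and a type I serine/threonine kinase receptor together. The type II receptor then phosphorylates the type I receptor, which activates Smad transcription factors. The long cytoplasmic tail of BMPR2 also binds LIM kinase 1. LIM kinases phosphorylate and inactivate cofilin and its relative destrin, proteins that sever and depolymerise actin filaments, so the receptor tail ties BMP signalling to the actin of growing dendrites.

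RNA came from mitral cells, which carry the output of the olfactory bulb to the cortex. They were taken from ICR mice on postnatal day 3 (P3) or 6 (P6). All cells carried pCAG-EYFP, a plasmid for a yellow fluorescent protein under a promoter active in most cell types, given by in utero electroporation at embryonic day 12. Control cells carried it alone, and Kir2.1 cells also carried pCAG-Kir2.1, which encodes an inward rectifier potassium channel that lowers excitability. Each of the 4 groups had 4 pools on 16 1-colour arrays, and a pool held the cDNA of 10 hand-picked cells amplified singly by 30 cycles of PCR. The labels call the pools biological replicates but name no animals, so p-values measure the spread between pools, which may be technical.

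Well above background is the scanner software's call that a spot exceeds its local background, and it held for 34.3% to 41.1% of an array's probes. Levels are given in log2 with 0 at the 75th percentile, in each pool, of 12103 probes with that call on every array, and the 4 pools of a group limit their precision. All P3 arrays shared one slide and scan and all P6 arrays another: slide and age cannot be told apart. Control pools lay in row 1 and Kir2.1 pools in row 2 of each slide, so treatment and slide row cannot be told apart either. Markers of the labelled cell type were found in every pool, and so were some markers of other cell types, described below. Of 14 tested mitral and tufted cell markers, 12 to 14 were well above background in each pool, and Cdhr1, Tbx21, Eomes, Slc17a6 and Slc17a7 were so on all 16 arrays. The Kcnj2 probe, for the mouse's own Kir2.1 gene, was at background on all 16 arrays. It may not read the cDNA of the plasmid and is no check of the labels.

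Interneuron markers differed between the P6 groups. Over the 14 tested of 16 listed markers, the mean level of a pool lay between -3.36 and -1.72 in P6 control and between -6.60 and -4.19 in P6 Kir2.1, without overlap. It lay between -6.16 and -4.94 in P3 control and between -5.57 and -4.80 in P3 Kir2.1. Gad1 and Gad2, which make GABA, were well above background in 4 of 4 P6 control pools, in 3 of 4 P6 Kir2.1 pools and in 1 of 4 P3 control pools. In P3 Kir2.1 these counts were 3 for Gad1 and 4 for Gad2. In P6 control, 11 to 14 of the 14 interneuron markers were well above background in each pool. Mean levels of Gad2 (-0.96) and Gad1 (-1.67) in that group were above those of Slc17a7 (-1.93) and Slc17a6 (-2.18). They were below those of Cdhr1 (3.08), Eomes (0.63) and Tbx21 (-0.06). The P6 control pools thus do not read as mitral cells alone. Other lists overlapped between the P6 groups in pool means, some with differences mostly of one sign. Kir2.1 minus control at P6 was positive for 1 of 14 interneuron markers (median -2.27), 0 of 8 astrocyte and radial glia markers (-1.32), 0 of 5 microglia markers (-0.98), 1 of 6 ensheathing cell markers (-0.78), 6 of 8 vascular and blood cell markers (0.65) and 10 of 14 mitral and tufted cell markers (0.59). From P3 to P6 in control cells it was positive for 12 of 14 interneuron (2.40), 8 of 8 astrocyte (1.95) and 6 of 6 ensheathing cell markers (1.58). Astrocyte marker means lay between -5.65 and -4.84 in P3 control and between -4.40 and -1.82 in P6 control, without overlap. Mitral marker means did not overlap between Kir2.1 ages, at -1.66 to -0.86 at P3 and -0.50 to 0.56 at P6. The part of these markers in any result at P6, or in any comparison of ages, was not tested. In pooled cells, fewer cells that carry a transcript and less of it per cell cannot be told apart.

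The DNA just upstream of 3 members is shown, because Bmpr2 is the receptor around which the genes were chosen, Limk2 had the lowest p between P6 groups and Acvr2a the lowest p between control ages. The sequences are those of RefSeq on GRCm38.p6, in the direction of transcription: chr1:59764029-59764278 on the plus strand for Bmpr2, chr2:48813859-48814108 on the plus strand for Acvr2a and chr11:3409277-3409488 on the minus strand for Limk2. Each ends at the base before the annotated gene, and capitals mark GGCGCC, a GC-rich run that BMP-activated Smads are known to bind.
Bmpr2: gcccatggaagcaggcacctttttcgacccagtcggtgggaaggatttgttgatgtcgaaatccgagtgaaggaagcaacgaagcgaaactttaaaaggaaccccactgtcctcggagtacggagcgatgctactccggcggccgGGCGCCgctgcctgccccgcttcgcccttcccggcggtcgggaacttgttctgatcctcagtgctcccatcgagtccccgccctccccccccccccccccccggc
Acvr2a: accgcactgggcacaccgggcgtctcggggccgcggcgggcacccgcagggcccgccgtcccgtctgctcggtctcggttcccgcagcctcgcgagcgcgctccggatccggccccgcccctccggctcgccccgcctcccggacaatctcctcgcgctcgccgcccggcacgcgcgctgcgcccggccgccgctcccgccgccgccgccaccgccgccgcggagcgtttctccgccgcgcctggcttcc
Limk2: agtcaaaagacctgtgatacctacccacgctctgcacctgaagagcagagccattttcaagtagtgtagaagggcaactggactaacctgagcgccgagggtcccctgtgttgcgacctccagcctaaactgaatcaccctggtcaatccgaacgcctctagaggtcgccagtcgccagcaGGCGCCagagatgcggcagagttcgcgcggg
All 9 members matched the RefSeq promoter table, with 14 windows in all that run from 250 bases before to 50 after a start site. Both strands were searched. GGCGCC lay in 4 of the 14 windows, those of Bmpr2, Bmpr1a, Acvr1b and Limk2, and in 11.9% of all 32851 windows. The palindrome TGACGTCA, to which the activity-regulated factor CREB is known to bind, lay in 0 of the 14 and in 1.79% of all windows. Its core TGACG, which is part of the palindrome, lay in 0 of the 14 and in 20.8% of all windows. These are matches of letters only.

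The receptors and kinases formed a group measured in nearly every pool and a group near background. Acvr2a, Bmpr1a, Acvr1, Limk1 and Limk2 were well above background on all 16 arrays and Acvr2b on 15. Bmpr2 was so on 6 arrays, Acvr1b on 5 and Bmpr1b on 4. Tests covered 11 of the 12 probes, those with at least 4 arrays well above background. The exception was the second of 2 Bmpr1b probes, seen in 1 pool. A probe at background in a pool gives only an upper limit there, and 10 cells amplified singly are few for a rare transcript.

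No member passed the threshold, a limma p of 0.05 after Benjamini-Hochberg adjustment over 21070 features, in any of the 6 contrasts. Between Kir2.1 and control, 0 of 9 passed at P3, where 0.00949% of all features did, and 0 of 9 passed at P6, where 1.76% did. Without adjustment, limma's p was under 0.05 for 0 of 9 at P3, against 6.53% of all features. At P6 it was under 0.05 for 2 of 9, Limk1 and Limk2, against 17.5%. The groups did not overlap for 2 of 9 members at P3, against 6.8% of features, and for 1 of 9 at P6, against 8.89%. At P6, 6 of 9 changes were negative, against 56.3% of features, with a median of -0.71 over the members and -0.13 over all features. At P3, 5 of 9 were negative, against 52.2%, with a median of -0.46 against -0.03.

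**Figure D1:**
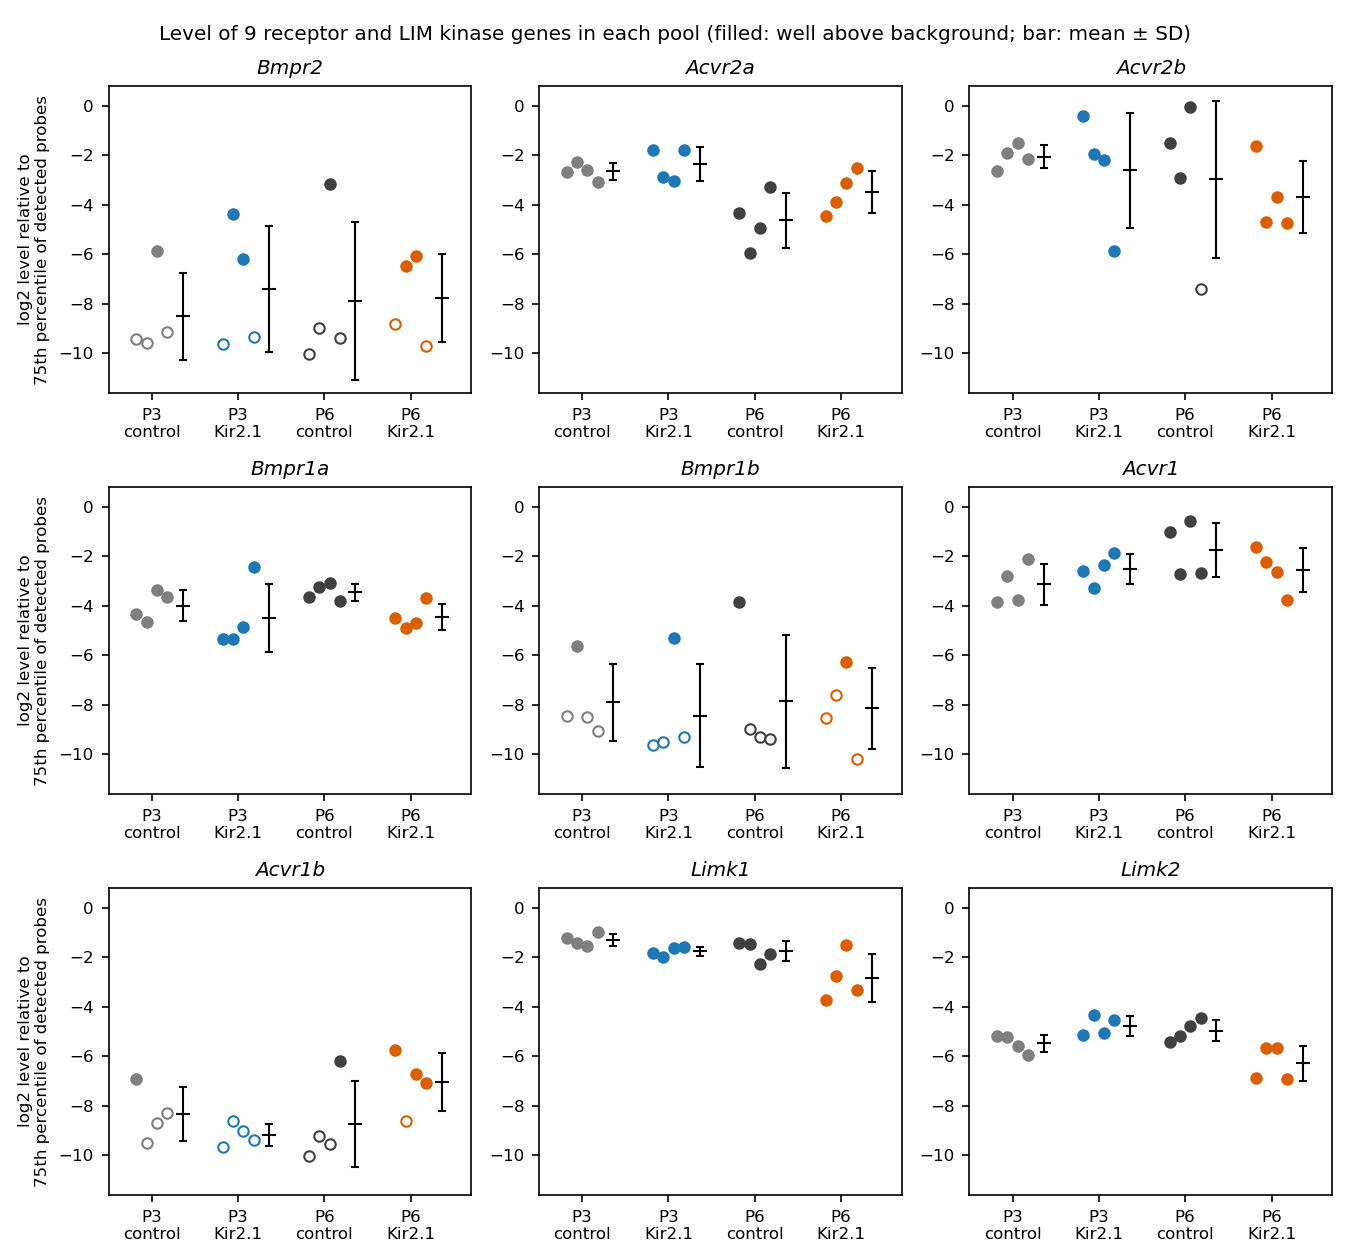
Level of each of the 9 genes (y axis, log2 signal relative to the 75th percentile of the probes well above background on all arrays) in the 4 pools of each group (x axis), by the brightest probe. Filled points were well above background, open points were not, and bars give the mean ± SD of 4 pools; Bmpr2, Bmpr1b and Acvr1b sit near background in most pools and the other 6 genes are filled in nearly all.

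Bmpr2, the type II receptor whose tail binds LIM kinase 1, was at background in 10 of 16 pools. At P3 its level was -9.42, -9.56, -5.88 and -9.13 in control pools 1 to 4 and -9.62, -4.38, -6.19 and -9.36 in Kir2.1 pools 1 to 4. At P6 it was -10.04, -8.97, -3.14 and -9.39 in the control pools and -8.81, -6.49, -6.07 and -9.69 in the Kir2.1 pools. In each group 1 or 2 pools stood several log2 units above the rest, and the groups overlapped throughout. The highest Bmpr2 value of all, -3.14, was in P6 control pool 3, and the lowest, -10.04, in pool 1 of the same group. The Kir2.1 minus control difference was 1.11 (SE 1.59, 95% interval -2.31 to 4.53) at P3 and 0.12 (SE 1.59, -3.30 to 3.54) at P6. Adjusted limma p-values were 0.95 and 0.98. The P3 difference was 0.11 after normexp, another background correction, run with an offset of 50 added to each signal. Such an offset draws the log2 differences of dim probes toward 0. A smaller difference after normexp therefore cannot be told apart from the effect of the offset. The P3 difference was 0.55 with a floor at the lowest signal well above background. With 1 pool left out it ran from 0.11, without P3 Kir2.1 pool 2, to 1.98, without P3 control pool 3. The P6 difference was negative after normexp (-0.61) and with the floor (-0.73), and ran from -0.60 to 1.70 with 1 pool left out. Those intervals take in changes of several-fold either way, so a moderate change of Bmpr2 was not detectable with these pools. Its spread within groups, a pooled SD of 2.39, was wider than that of 91.0% of tested features.

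Acvr2a, a type II receptor shared by activins and several BMPs, was measured in every pool. At P3 its brighter probe read -2.68, -2.26, -2.58 and -3.08 in the control pools and -1.76, -2.87, -3.02 and -1.77 in the Kir2.1 pools. At P6 it read -4.32, -5.93, -4.95 and -3.29 in the control pools and -4.46, -3.87, -3.13 and -2.49 in the Kir2.1 pools. All 4 P6 control pools lay below all 4 P3 control pools, whereas the P6 Kir2.1 pools overlapped both the P3 Kir2.1 pools and the P6 control pools. The control difference of P6 minus P3 was -1.97 (SE 0.55, limma adjusted p = 0.077). Among Kir2.1 pools it was -1.13 (SE 0.55, adjusted p = 0.355). Without P6 control pool 4, the highest of its group, the control difference passed the threshold, at -2.42 with an adjusted p of 0.0411. It passed in 1 of 16 fits with a pool left out, which ran to -1.54 and an adjusted limma p of 0.167. Kir2.1 minus control at P6 was 1.13 (SE 0.55, adjusted p = 0.307). After normexp these differences were -1.13 between control ages and 0.55 at P6. The difference between the age effects of Acvr2a in control and Kir2.1 cells was 0.84 (SE 0.78, adjusted p = 0.753). The second Acvr2a probe, well above background in 12 of 16 pools, gave -1.20 (adjusted p = 0.647) for the control ages and 0.84 (adjusted p = 0.763) for Kir2.1 at P6, the same signs with wider error.

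Acvr2b, the other activin type II receptor, had the widest range of the members over the 16 pools, 7.34, though its pooled SD within groups, 2.11, was below that of Bmpr2. In control pools it measured -2.65, -1.91, -1.51 and -2.14 at P3 and -1.51, -2.92, -0.05 and -7.39 at P6. In Kir2.1 pools it measured -0.42, -1.95, -2.20 and -5.87 at P3 and -1.62, -4.70, -3.66 and -4.74 at P6. P6 control pool 4 was the only pool not well above background. Kir2.1 minus control was -0.56 (SE 1.41, adjusted p = 0.976) at P3 and -0.71 (SE 1.41, adjusted p = 0.841) at P6 in limma. Both signs rest on single pools. Without P3 Kir2.1 pool 4 the P3 difference was 0.53, and without P6 control pool 3 the P6 difference was 0.26.

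Bmpr1a (ALK3), the type I BMP receptor most widely expressed in the nervous system, was well above background in every pool. At P3 it read -4.32, -4.67, -3.34 and -3.63 in the control pools and -5.33, -5.36, -4.84 and -2.44 in the Kir2.1 pools. P6 control pools read -3.66, -3.24, -3.09 and -3.81, and P6 Kir2.1 pools -4.49, -4.88, -4.71 and -3.68. Of the P6 Kir2.1 pools, 3 of 4 were lower than every control pool, and pool 4 was not. The P6 difference was -0.99 (SE 0.57, 95% interval -2.21 to 0.23, limma adjusted p = 0.387). The P3 difference was -0.50 (SE 0.57, adjusted p = 0.932) and became -1.19 without Kir2.1 pool 4 and -0.24 after normexp. Ages differed by 0.54 in control pools (adjusted p = 0.671) and by 0.05 in Kir2.1 pools (adjusted p = 0.977).

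Acvr1 (ALK2), a type I receptor for BMPs, was read by 2 probes that did not give the same picture. The brighter probe, well above background everywhere, read -3.85, -2.81, -3.77 and -2.10 in P3 control and -2.57, -3.27, -2.36 and -1.85 in P3 Kir2.1. It read -1.01, -2.70, -0.59 and -2.66 in P6 control and -1.62, -2.24, -2.63 and -3.75 in P6 Kir2.1. The groups overlapped at both ages, with Kir2.1 minus control at 0.62 (SE 0.60, adjusted p = 0.919) at P3 and -0.82 (SE 0.60, adjusted p = 0.508) at P6. With 1 pool left out these ran from 0.38 (without P3 control pool 1) to 0.96 (without P3 control pool 4) and from -1.14 to -0.42 (without P6 Kir2.1 pool 4), and the mean of both probes gave 1.62 and -0.14. The dimmer probe read -7.27, -6.72, -6.29 and -6.21 in P3 control and -2.22, -5.42, -5.09 and -3.27 in P3 Kir2.1, without overlap. Its P3 difference was 2.62 (SE 0.88), with an unadjusted p of 0.0105 and an adjusted limma p of 0.602. At P6 the dimmer probe gave 0.54 (adjusted p = 0.801), opposite in sign to the brighter one. Between control ages the probes gave 1.39 (adjusted p = 0.241) and 1.57 (adjusted p = 0.386).

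Bmpr1b (ALK6) and Acvr1b (ALK4), type I receptors for BMPs and for activins, were near background. Bmpr1b was well above background in 1 pool of each group, at -5.63 in P3 control pool 2, -5.31 in P3 Kir2.1 pool 3, -3.83 in P6 control pool 1 and -6.26 in P6 Kir2.1 pool 3. Its other 12 pools ranged down to -10.17. Kir2.1 minus control was -0.53 (SE 1.36, adjusted p = 0.976) at P3 and -0.27 (SE 1.36, adjusted p = 0.946) at P6. Leaving out the bright control pool turned each sign, to 0.23 at P3 and 1.07 at P6. No direction can be read for Bmpr1b.

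Acvr1b was seen mainly in P6 Kir2.1 pools. Its level there was -5.74, -8.59, -6.70 and -7.09, and 3 of these 4 pools were well above background. Acvr1b met the filter of 4 arrays only through this group, where it was high. Its comparisons with P6 Kir2.1 are therefore of a gene picked partly for being high there. P6 control pools read -10.01, -9.20, -9.52 and -6.19, P3 control pools -6.90, -9.50, -8.69 and -8.28, and P3 Kir2.1 pools -9.65, -8.63, -9.02 and -9.37. One pool of each control group was well above background and none of P3 Kir2.1. The P6 groups overlapped, with a difference of 1.70 (SE 0.81, limma adjusted p = 0.298) that was -0.11 after normexp and 0.34 with the floor. Among Kir2.1 cells all P6 pools lay above all P3 pools. Since P3 Kir2.1 was not well above background anywhere, the change is given as a bound, at least 1.23-fold higher at P6: the P6 mean of -7.03 against -7.33, the mean over P3 pools of the higher of the lowest signal well above background and the probe's own. The P6 mean includes pool 2, which was not well above background. The measured P3 mean was -9.17, and the adjusted limma p of that contrast was 0.234. After normexp the difference was -0.024, so the bound does not hold under that correction with its offset of 50. The interaction of age and Kir2.1 was 2.53 (SE 1.15, unadjusted p = 0.0452, adjusted p = 0.454), and 0.019 after normexp.

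**Figure D2:**
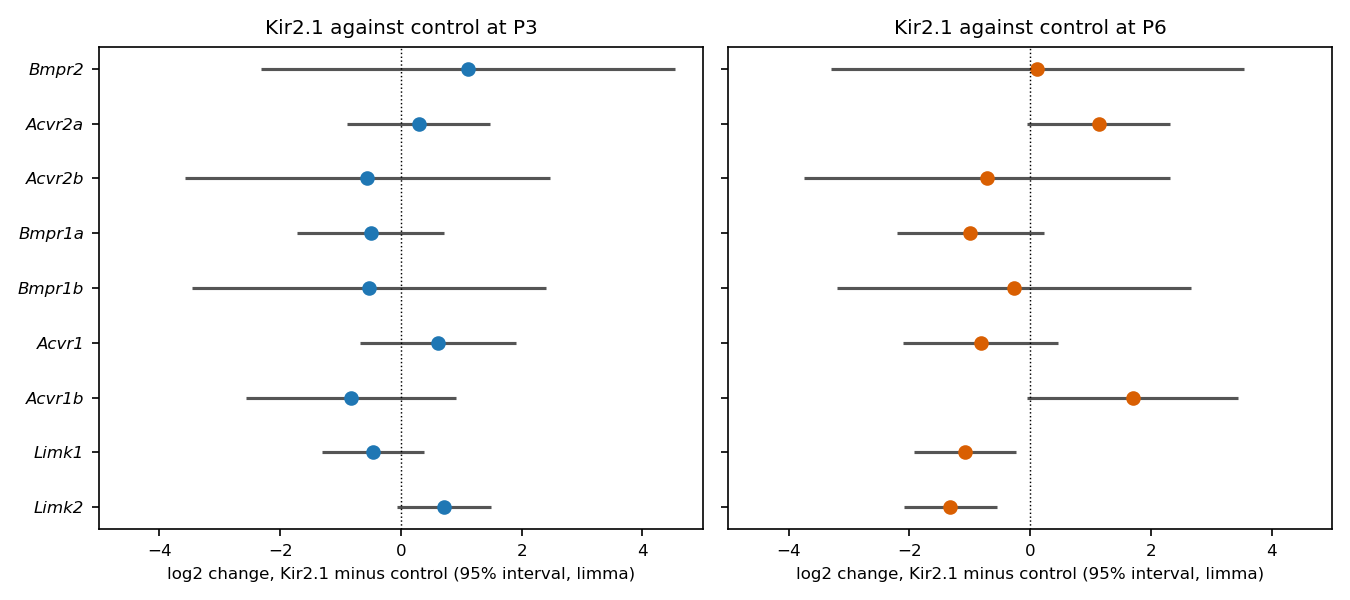
Kir2.1 minus control difference of each gene in log2 units (x axis) with its 95% interval from limma, at P3 (left) and P6 (right), 4 pools a group. The intervals of Limk1 and Limk2 at P6 are the only ones that leave out 0, before adjustment over all features, and those of Bmpr2, Acvr2b and Bmpr1b are the widest.

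The LIM kinases had the tightest values of the set, with pooled SDs of 0.54 for Limk1 and 0.49 for Limk2 against a median of 0.91 over all features. Limk1, the kinase bound by the BMPR2 tail, read -1.22, -1.43, -1.55 and -1.0 in P3 control and -1.83, -1.97, -1.63 and -1.59 in P3 Kir2.1. At P6 it read -1.41, -1.45, -2.27 and -1.85 in control and -3.73, -2.75, -1.52 and -3.32 in Kir2.1. Every P3 Kir2.1 pool was lower than every P3 control pool, with 0.03 between the nearest pair. Among P6 Kir2.1 pools, pools 1, 2 and 4 were lower than every control pool, and pool 3 was not. The Limk1 difference was -0.46 (SE 0.39, limma adjusted p = 0.913) at P3. At P6 it was -1.08 (SE 0.39, unadjusted p = 0.0156, adjusted p = 0.172). Over both ages it was -0.77 (SE 0.28, adjusted p = 0.241), with 1 of 9 members under an unadjusted p of 0.05 against 13.5% of features and 0 of 9 past the adjusted threshold against 0.712%. Without P6 Kir2.1 pool 3, the pool among the controls, the P6 difference passed the threshold, at -1.52 with an adjusted p of 0.0281. This was the case in 1 of 16 fits with a pool left out. Over these the difference ran to -0.78 and the adjusted limma p to 0.345.

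Limk2, the second LIM kinase, stood on opposite sides of control at the 2 ages. At P3 it read -5.16, -5.23, -5.57 and -5.93 in control and -5.16, -4.33, -5.04 and -4.53 in Kir2.1. At P6 it read -5.42, -5.18, -4.77 and -4.46 in control and -6.87, -5.68, -5.66 and -6.90 in Kir2.1. The lowest P3 Kir2.1 pool lay above the highest P3 control pool by 0.00667 only, whereas the highest P6 Kir2.1 pool lay below the lowest P6 control pool by 0.24. The P3 difference was 0.71 (SE 0.36, 95% interval -0.07 to 1.49, limma adjusted p = 0.804). At P6 Limk2 was 2.50-fold lower in Kir2.1 (-1.32, SE 0.36, 95% interval -2.10 to -0.55, unadjusted p = 0.00267, adjusted p = 0.078), lower in 4 of 4 pools. The interaction, the P6 difference minus the P3 difference, was -2.03 (SE 0.51, unadjusted p = 0.00143, adjusted p = 0.148). In that contrast 0.0902% of features and 0 of 9 members passed. An unadjusted limma p under 0.05 was held by 10.7% of features and 2 of 9 members, Limk2 and Acvr1b. Acvr1b met the filter only through P6 Kir2.1, where it was high. After normexp the Limk2 difference was 0.21 at P3 and -0.62 at P6, and the interaction -0.82.

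The ages were compared within each treatment. In control cells 0 of 9 members passed against 2.59% of features, and 1 of 9, Acvr2a, did not overlap against 12.7%. Unadjusted p-values were under 0.05 for Acvr2a and Acvr1, 2 of 9 against 17.9% of features. In Kir2.1 cells 0 of 9 passed against 0.878%, and 2 of 9 did not overlap against 10.5%. Unadjusted limma p-values were under 0.05 for 3 of 9 against 15%. Acvr1b, which met the filter only through P6 Kir2.1, is among the 2 and among the 3. Limk2 was -1.51 (SE 0.36, limma adjusted p = 0.073; -0.65 after normexp) and Limk1 -1.08 (SE 0.39, adjusted p = 0.215) from P3 to P6 in Kir2.1 cells. In control cells Limk2 was 0.52 (adjusted p = 0.495) and Limk1 -0.45 (adjusted p = 0.602). The 2 comparisons of Limk2 that involve P6 Kir2.1 share those 4 pools. Without P6 Kir2.1 pool 3, the Limk1 age difference in Kir2.1 cells passed, at -1.51 with an adjusted p of 0.0427. It passed in 1 of 16 fits with a pool left out, which ran to -0.78 and an adjusted limma p of 0.406. Slide moves with age in each of these values, interneuron and astrocyte marker levels move with age among control pools, and mitral marker levels among Kir2.1 pools.

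The genes around LIM kinase were followed in a list of 27 regulators and actin targets, of which 24 were tested. At P6, 2 of 24 rose in Kir2.1 and 0 fell, against 0.864% and 0.892% of all features. The median over the list was 0.13, against -0.13 over all features. Pak1, a kinase downstream of Rac1 and Cdc42 that phosphorylates and activates LIM kinase, read -1.56, -1.39, -2.85 and -0.42 in P6 control and 0.96, 0.58, 0.71 and 1.21 in P6 Kir2.1. Every Kir2.1 pool lay above every control pool, and Pak1 rose by 2.42 (SE 0.48, limma adjusted p = 0.0261). At P3 Pak1 overlapped between groups and differed by -0.24 (adjusted p = 0.969). Dstn, which encodes destrin, read -2.02, -2.88, -1.29 and -2.63 in P6 control and -0.06, -1.04, -1.0 and -0.69 in P6 Kir2.1. The Dstn groups did not overlap at either age. Dstn rose by 1.51 (SE 0.33, adjusted p = 0.039) at P6, and the P3 difference was 0.69 (SE 0.33, adjusted p = 0.785). The P6 groups that differ in Pak1 and Dstn are those that differ in interneuron markers, whose part was not tested.

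Both calls were near the threshold. The Pak1 call was lost when P6 Kir2.1 pool 1 (adjusted p = 0.0639) or pool 4 (0.0607) was left out, with array weights (0.057), with the replicate number as a block (0.0565) and in a fit of the P6 groups alone (0.158). The Dstn call held without P3 Kir2.1 pool 3, P6 control pool 3 or P6 Kir2.1 pool 3, and ended without each of the other 13 pools, with adjusted p-values from 0.051 to 0.0968. It also ended with no filter (0.0653), with the block (0.066) and in the P6 groups alone (0.281). Cfl1, the main cofilin of neurons and the best known LIM kinase substrate, was chosen for mention after its values were seen. It differed by -0.12 (adjusted p = 0.963) at P3 and by -0.08 (adjusted p = 0.891) at P6. Rhoa, the GTPase upstream of the LIM kinase activator ROCK, had the lowest p of the list at P3, at -1.02 (SE 0.33, adjusted p = 0.567). A second Rhoa probe gave -0.52 (adjusted p = 0.943).

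**Figure D3:**
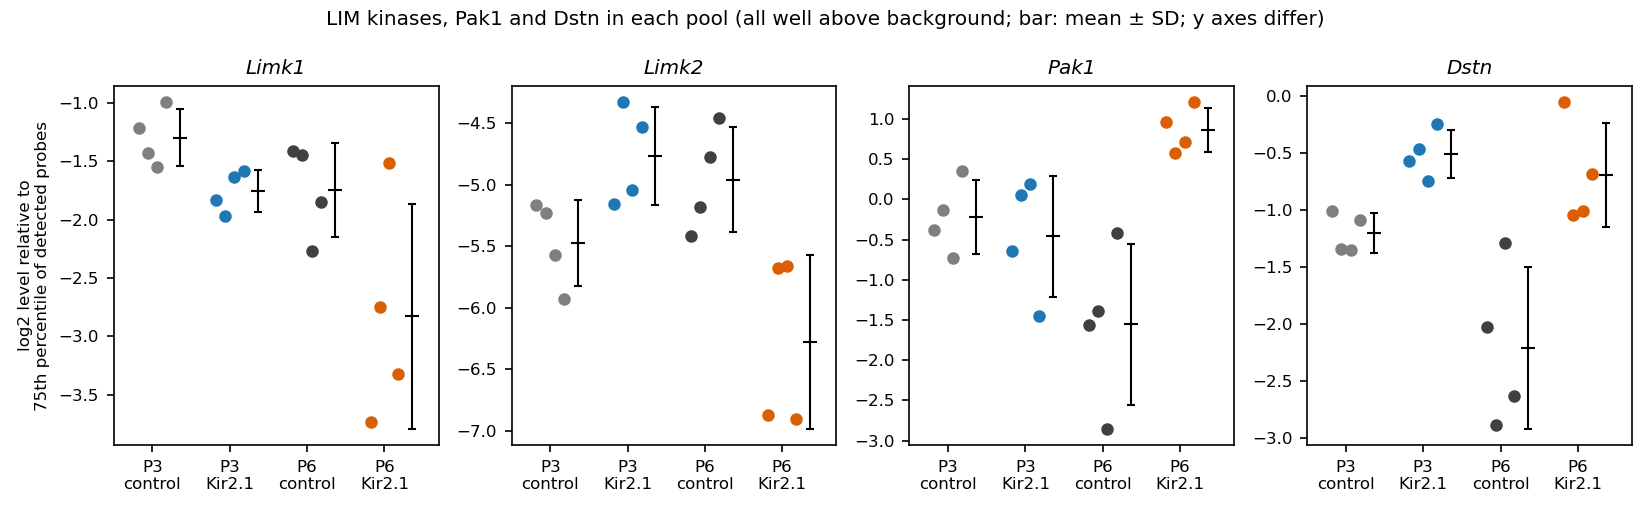
Levels of Limk1, Limk2, Pak1 and Dstn (y axes, log2 signal relative to the 75th percentile of the probes well above background on all arrays, each with its own range) in the 4 pools of each group (x axis), with bars for mean ± SD. Every point was well above background; at P6 the Kir2.1 pools of Pak1 and Dstn lie above their controls and those of Limk2 below, while Limk1 pool 3 lies among the controls.

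Among BMP and activin ligands 13 of 29 listed genes were tested, and the others had no probe well above background on 4 arrays or more. Over both ages 1 of 13 rose in Kir2.1 and 0 fell, against 0.422% and 0.29% of features. That gene was Inhbe, an activin subunit, which rose by 0.94 (SE 0.16, adjusted p = 0.0195) over both ages. It read -7.00, -7.02, -7.27 and -7.29 in P3 control, 2 of them well above background, and -5.63, -5.70, -5.78 and -5.95 in P3 Kir2.1, all 4 well above it. In P6 control it read -7.02, -7.00, -7.59 and -6.68 and in P6 Kir2.1 -6.30, -6.41, -6.85 and -6.73, with overlap. These levels lie close to background, and after normexp, with its offset of 50, the Inhbe difference was 0.01 (limma adjusted p = 0.979). Its call also ended without P3 control pool 4 (adjusted p = 0.0501) and with a trended, robust variance estimate (0.0605).

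Inhbb, the activin beta B subunit, was not well above background in any P3 pool. It read -6.01, -2.57, -3.55 and -3.38 in P6 control, all well above background, and -9.37, -3.90, -8.20 and -10.15 in P6 Kir2.1, where pool 2 alone was. Between control ages it was at least 10.6-fold higher at P6, from the mean of -3.88 against a bound of -7.29, with a measured P3 mean of -9.06 and an adjusted limma p of 0.0269. It was the 1 of 13 ligand genes that rose, against 1.33% of features, and 0 fell, against 1.25%. Inhbb met the filter of 4 arrays only through P6 control, the group where it was high. Its comparisons with P6 control, the bound and this count are therefore of a gene picked partly for being high there. The call ended without any of 6 pools, P3 control 1, 2 or 3 and P6 control 2, 3 or 4, with adjusted p-values from 0.0516 to 0.0755. It also ended after normexp, where the log2 difference was 1.28 (adjusted p = 0.141) against 5.18 in limma without it. The bound does not hold under that correction with its offset of 50. With the floor the difference was 3.41. Kir2.1 minus control at P6 was -4.03 (SE 1.10, adjusted p = 0.0783). Interneuron markers, at -3.36 to -1.72 in P6 control, and astrocyte markers, at -4.40 to -1.82, were high in the same group, and their part was not tested.

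Extracellular inhibitors and co-receptors had 6 of 20 genes tested. Rgma, a BMP co-receptor and axon guidance molecule, rose by 1.22 (SE 0.28, adjusted p = 0.0365) from P3 to P6 in control cells, 1 of 6 against 1.33% of features. It read -2.26, -3.03, -3.40 and -3.05 in P3 control and -1.83, -1.51, -2.00 and -1.52 in P6 control, without overlap. In P6 Kir2.1 it read -3.06, -2.57, -2.05 and -2.59, all below P6 control, a difference of -0.86 (SE 0.28, adjusted p = 0.13). The call for age ended without any of 9 pools, P3 control 2, 3 or 4, P3 Kir2.1 1 or 4, P6 control 1, 2 or 4 and P6 Kir2.1 4 (adjusted p-values from 0.0509 to 0.112). It ended too with the percentile over all probes (0.0637), in the deposited value table (0.0626), with no filter (0.0667), with the block (0.0835) and in the control groups alone (0.126).

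Of 20 Smads and intracellular regulators 14 were tested, and 0 passed in any contrast, against 0.00949% to 2.59% of all features by contrast. Those with the lowest p at P6 were Smurf2, a ubiquitin ligase for Smads and their receptors, at -1.77 (SE 0.94, adjusted p = 0.349), and Skil, a Smad co-repressor, at 1.29 (SE 0.62, adjusted p = 0.305). Fkbp1a, which encodes the type I receptor inhibitor FKBP12, was -0.59 (SE 0.20, adjusted p = 0.13) from P3 to P6 in control cells and -0.60 (SE 0.20, adjusted p = 0.163) in Kir2.1 cells, with no overlap in either. Of 10 TGF-beta ligands and other receptors 6 were tested and 0 passed in any contrast, against the same shares of all features. Tgfb2, a TGF-beta ligand, was by its brighter probe well above background in 3 of 4 P3 Kir2.1 pools, in 1 pool each of P3 control and P6 control and in none of P6 Kir2.1. Its P3 difference was 4.18 (SE 1.35, limma adjusted p = 0.567), and 0.54 (adjusted p = 0.976) by a second probe. The brighter probe met the filter of 4 arrays only through P3 Kir2.1, the group where it was high.

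BMP target genes had 6 of 12 genes tested. Smad activity itself was not measured. Over both ages 1 of 6 fell in Kir2.1 and 0 rose, against 0.29% and 0.422% of features. This was Id2, a helix-loop-helix inhibitor, which fell by 2.04 on the log2 scale (SE 0.39, adjusted p = 0.0338). At P3 it read -2.07, -2.31, -2.28 and -2.96 in control and -5.04, -5.62, -3.67 and -5.75 in Kir2.1, without overlap. At P6 it read -2.79, -3.11, -2.44 and -2.27 in control and -3.03, -3.25, -5.01 and -5.23 in Kir2.1, where pool 1 lay among the controls. The Id2 call ended without any of 10 pools, all 4 of P3 control, P3 Kir2.1 1, 2 or 4, P6 control 4 and P6 Kir2.1 3 or 4 (adjusted p-values from 0.0501 to 0.0754), with no filter (0.0593) and with the block (0.0672). Other targets went the other way in value: Id3 was 2.46 (SE 1.02, adjusted p = 0.313) over both ages, and Hey1 was 1.54 (SE 0.51, adjusted p = 0.135) at P6. The targets thus had 3 positive and 3 negative values at P6, with a median of 0.42. Of the positive values, 2.39 was that of Id1, well above background in 3 of 4 P6 Kir2.1 pools. Id1 was so in 1 pool each of P3 control and P6 control and in 0 of P3 Kir2.1. It therefore met the filter of 4 arrays only through P6 Kir2.1, where it was high. The other values were 2.55, 1.54, -0.71, -1.23 and -1.47, so the sign of the median rests on Id1.

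**Figure D4:**
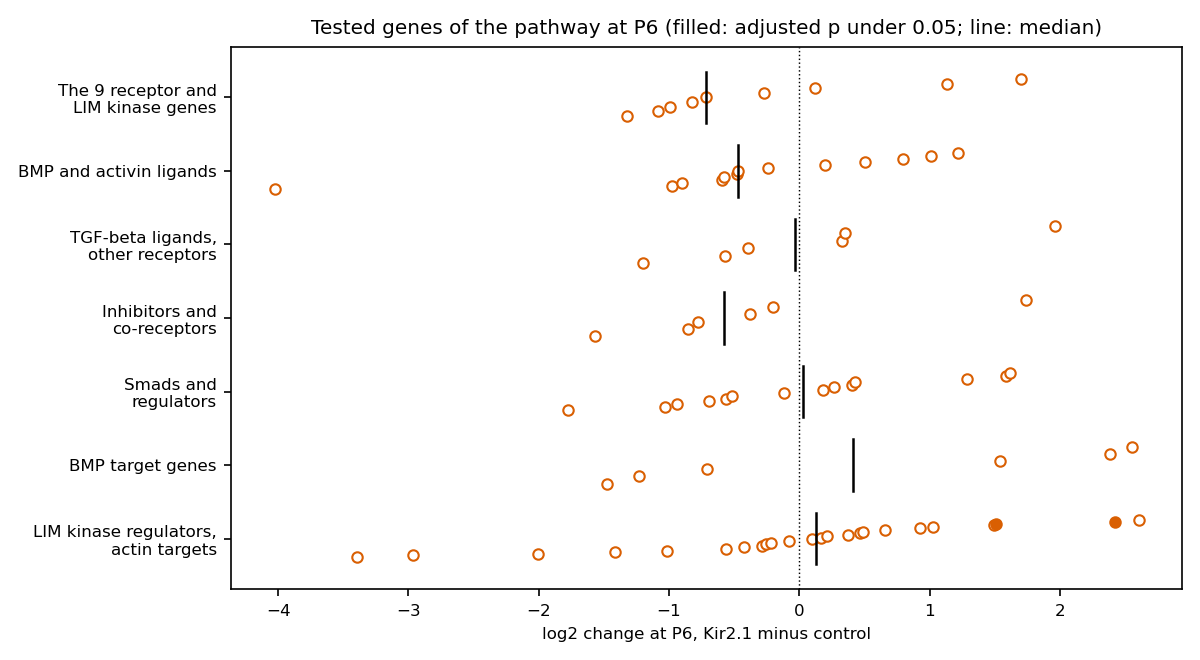
Kir2.1 minus control difference at P6 in log2 units (x axis) for each tested gene of the members and of 6 lists of the pathway (rows), with a line at the median of each row. Filled points, Pak1 and Dstn in the bottom row, passed an adjusted limma p of 0.05; no gene of the other rows did.

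The genes whose levels over the 16 pools ran most like 3 of the members are given as a description. For Bmpr2 they were Prkcq (Pearson r = 0.78), Cbll1 (0.78), Hnrnpll (0.75) and Fdx1 (0.74). For Bmpr1a they were Iqgap1 (0.78), Hacd1 (0.78), Akr1b10 (0.76) and Nipal2 (0.75). For Limk1 they were Scamp3 (0.88), Olfr524 (0.85), Fam171a1 (0.85) and Slc25a17 (0.83). Some of these genes were near background in many pools. Prkcq was well above background on 5 of 16 arrays, Akr1b10 and Nipal2 on 7, Iqgap1 on 9 and Bmpr2 itself on 6. Fdx1, Hacd1, Scamp3 and Fam171a1 were so on all 16, and the remaining genes on 13 or 15. The points share array, slide and pool, and each is the best of 12035 named genes. Among the members themselves the highest correlation was that of Limk1 and Limk2, at 0.58 over the pools and 0.36 after group means were removed.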

How the data were processed

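Values came from 16 1-colour Agilent arrays. Per the file headers, the authors' scanner tables, made with Feature Extraction 10.7.3.1, hold the processed spot intensity on a linear scale. The deposited value table holds that signal as a ratio to the array's 75th percentile, linear and not centred, and served as an alternative. Control and outlier spots were left out, and spots of a probe averaged. Probes were named through RefSeq accessions (GRCm38.p6; the array design names mm9, so no gene coordinates are given). Signals were set in log2 against the 75th percentile of the 12103 probes well above background on all arrays. Features well above background on at least 4 arrays were tested, the brightest probe for each gene: 12035 named genes and 9035 unnamed probes. All arrays were fitted with limma 3.58.1 (R 4.3.3). Scripts were tested on simulated data. The values of second probes were adjusted in a fit of all 24010 probes.

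The highest correlation of 2 arrays was 0.88, and each pool counts as its own sample. The members and lists were chosen with earlier results of these data known. Named besides the members were list genes past the threshold, up to 2 of a list and contrast with the lowest p, and for 3 members the 4 most correlated genes; not every gene this rule allows is printed.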

Additional observations from a re-analysis of the deposited data

Results flagged for a closer look

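In 4 of 36 groups of member values, 1 pool stood apart from the other 3 by Dixon's test at 95%, which chance flags in about 1 of 20 groups. Bmpr2 was -5.88 in P3 control pool 3, with the next pool at -9.13, and -3.14 in P6 control pool 3, with the next at -8.97. Bmpr1b was -5.31 in P3 Kir2.1 pool 3, with the next at -9.29, and -3.83 in P6 control pool 1, with the next at -8.97. In each case the high pool was the only one of its group well above background.

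Limk2 moved in opposite directions at the 2 ages, with all 4 Kir2.1 pools above control at P3 and all 4 below at P6, the P3 margin being 0.00667. The difference was tested as the interaction, -2.03 (limma adjusted p = 0.148), and did not pass.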

How the results depend on the processing

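No setting that kept all pools brought a member past the threshold, with lowest adjusted limma p-values over the members of 0.063 at P6, 0.0575 between control ages and 0.0501 between Kir2.1 ages. With 1 pool left out in turn, the count of members past it was 0 to 1 in each of these 3 contrasts and 0 in the other 3. Limk1 passed at P6 and between Kir2.1 ages without P6 Kir2.1 pool 3, and Acvr2a passed between control ages without P6 control pool 4. Each passed in 1 of 16 such fits, with adjusted limma p-values up to 0.345, 0.406 and 0.167 over the fits.

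Signs turned for members near background or with 1 extreme pool, and the cause was not tested. Bmpr2 at P6 became -0.61 with normexp and -0.73 with a floor at the lowest signal well above background. Acvr1b became -0.11 at P6 and -0.024 between Kir2.1 ages with normexp. Bmpr1b at P6 became 0.33 with quantile normalization. With 1 pool left out, Bmpr2 at P6 ran from -0.60 to 1.70, Acvr2b at P3 from -1.29 to 0.53 and at P6 from -2.18 to 0.26, and Bmpr1b at P3 from -1.57 to 0.23 and at P6 from -0.90 to 1.07. Of the other member changes and pathway calls, 381 values under other settings and 458 with a pool left out kept sign and side of the threshold, and 16 and 41 lost a call, all of them of pathway genes.

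Normexp on the mean signal was not run, because that column is not among those used here. Normexp on the median signal was chosen after seeing the data. It added an offset of 50 to each signal, which draws the log2 differences of dim probes toward 0. The filter at 8 arrays dropped Bmpr2, Bmpr1b and Acvr1b. Over all features, calls numbered 370 at P6 (range over settings 20 to 717), 2 at P3 (0 to 25), 150 over both ages (75 to 343), 545 between control ages (181 to 884), 185 between Kir2.1 ages (24 to 259) and 19 in the interaction (9 to 99). Of the calls at P6, 49.2% were higher in Kir2.1, against 71.5% with the percentile over all probes, 70.5% in the deposited value table and 34.4% with normexp. With the percentile over all probes this share went from 59.3% to 75.6% over both ages, from 45.9% to 64.3% between Kir2.1 ages and from 47.4% to 64.3% in the interaction. The percentile over all probes moved the median of all features at P6 from -0.13 to 0.09. The pool number was also the column of the array on its slide. Same-numbered pools did not deviate together over all tested features (correlations from -0.028 to 0.031). Such correlations cannot exclude a shared origin or a column effect for part of the features. With the number, and so the slide column, as a replicate block, 0 members passed in each contrast and 182 features passed at P6. The calls of Pak1, Dstn, Id2 and Rgma ended.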
